A study of Mus musculus with 2 samples.

Results

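Open chromatin regions in which no footprint was called were examined in hippocampal tissue of the mouse. A region was counted as open when peaks of both DNase-seq libraries overlapped by at least 1 bp, the peaks being those of the shorter, stricter list of each library, and it belonged to the set when no footprint of either library overlapped it. The regions were thus selected on the footprint calls themselves, with no use of sequence or annotation. Of 37119 such shared regions, 36161 lay on autosomes, and 1017 of these (2.81%) held no footprint. The comparison set was the 32795 autosomal regions (90.7%) with footprints of both libraries. A further 1734 regions (4.80%) held footprints of replicate 1 only and 615 (1.70%) of replicate 2 only.

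The 2 libraries came from female B6CASTF1/J mice, first-generation hybrids between B6 and CAST mice, aged 25 days and with no treatment given. The tissue type reads layer of hippocampus and does not say which layer. They are biological replicates 1 and 2 of 1 group and carry the same donor entry, so whether they came from separate animals is not stated and their spread may be technical in part. With no second group there was no condition to test. Regions are not replicates, so the comparisons below give each library's value and no p-value. Replicate 1 had 61466 strict peaks and 236942 footprints, and replicate 2 had 50379 and 159538. The depth of the libraries is unknown from the files used. Of the lists of cell type markers, promoters were open in both libraries for 16 of 18 autosomal pan-neuronal genes, 14 of 20 of excitatory neurons, 5 of 20 of interneurons, 7 of 20 of astrocytes, 4 of 19 of oligodendrocytes and 3 of 19 of microglia. None of 20 vascular genes was open. Of cells foreign to the tissue, none of 20 hepatocyte genes and 2 of 10 keratinocyte genes were open.

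DNase I cuts DNA where nucleosomes have been moved aside. Within such an open region a bound protein can shield a few bases from the enzyme, and the short dip in cuts that results is called a footprint. Footprints are read from the number of cuts, so a region with few cuts gives little to read them from, and factors that stay on DNA only briefly are known to leave shallow ones. An open region without a called footprint is therefore not the same as a region without bound protein. At CpG islands, the CpG-rich stretches over many gene starts, open chromatin commonly reaches from the promoter into the first exon or intron.

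The following 4 pairs show what the set looks like in sequence. Each pair gives a region without footprint and then the nearest footprinted region (for Junb and Gadd45b, the nearest at a start of the same gene). All are read from the RefSeq copy of GRCm38.p6 (mm10), on the plus strand, in windows of at most 240 bp with annotated UTR bases left out. In regions without footprint, capitals mark matches to any of 20 motifs searched on both strands, and in footprinted regions they mark bases inside a footprint of either library. Junb and Gadd45b are activity-regulated genes, whose transcription rises soon after neurons fire. The third pair lies upstream of Malat1, a long noncoding RNA gene, and the fourth in an exon of Tet3, which encodes an enzyme that oxidises methylated cytosine.
Junb, no footprint, chr8:84978041-84978233: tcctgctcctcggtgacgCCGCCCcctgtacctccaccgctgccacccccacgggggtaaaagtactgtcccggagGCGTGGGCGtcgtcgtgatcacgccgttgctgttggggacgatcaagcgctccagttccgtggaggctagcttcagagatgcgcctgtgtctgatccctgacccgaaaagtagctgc
Junb, footprinted, chr8:84978719-84978890: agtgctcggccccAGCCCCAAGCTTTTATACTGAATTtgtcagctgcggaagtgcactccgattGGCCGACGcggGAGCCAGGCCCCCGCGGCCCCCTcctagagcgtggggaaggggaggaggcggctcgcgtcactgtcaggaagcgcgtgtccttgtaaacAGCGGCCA
Gadd45b, no footprint, chr10:80930449-80930574: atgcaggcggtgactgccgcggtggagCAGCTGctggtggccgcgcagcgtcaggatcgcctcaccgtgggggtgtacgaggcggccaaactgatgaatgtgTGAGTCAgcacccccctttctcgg
Gadd45b, footprinted, chr10:80929871-80930072: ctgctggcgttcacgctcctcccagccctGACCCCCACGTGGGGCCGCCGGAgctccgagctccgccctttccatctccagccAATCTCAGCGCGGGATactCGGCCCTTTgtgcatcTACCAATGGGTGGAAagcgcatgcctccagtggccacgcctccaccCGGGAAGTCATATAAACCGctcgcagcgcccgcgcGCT
Malat1 upstream, no footprint, chr19:5803181-5803400: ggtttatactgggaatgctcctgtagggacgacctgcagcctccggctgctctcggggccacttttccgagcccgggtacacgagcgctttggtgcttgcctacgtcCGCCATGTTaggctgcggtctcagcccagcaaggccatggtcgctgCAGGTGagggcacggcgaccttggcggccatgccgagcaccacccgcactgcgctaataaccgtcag
Malat1 upstream, footprinted, chr19:5803521-5803760: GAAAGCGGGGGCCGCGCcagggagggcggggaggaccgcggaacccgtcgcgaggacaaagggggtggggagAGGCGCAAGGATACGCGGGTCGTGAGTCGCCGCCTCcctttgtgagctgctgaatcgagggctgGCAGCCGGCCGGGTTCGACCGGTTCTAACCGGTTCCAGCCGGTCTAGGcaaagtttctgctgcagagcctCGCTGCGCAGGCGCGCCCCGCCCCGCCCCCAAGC
Tet3 exon, no footprint, chr6:83440581-83440820: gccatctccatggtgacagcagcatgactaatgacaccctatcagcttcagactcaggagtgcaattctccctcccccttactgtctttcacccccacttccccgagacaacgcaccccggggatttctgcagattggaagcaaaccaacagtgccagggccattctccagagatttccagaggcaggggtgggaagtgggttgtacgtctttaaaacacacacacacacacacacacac
Tet3 exon, footprinted, chr6:83440901-83441140: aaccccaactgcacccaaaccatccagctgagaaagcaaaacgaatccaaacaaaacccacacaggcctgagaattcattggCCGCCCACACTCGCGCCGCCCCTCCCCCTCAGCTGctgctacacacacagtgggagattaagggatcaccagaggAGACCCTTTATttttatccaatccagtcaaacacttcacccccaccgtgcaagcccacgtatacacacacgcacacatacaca

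The Junb stretch without footprint lies in the coding exon and holds 1 match to the Egr motif GCGTGGGCG and 1 to the Sp and Klf motif GGGCGG (on the other strand). The footprinted Junb stretch lies just before the gene's start, and a footprint covers its TATA box match. The Gadd45b stretch without footprint lies in a coding exon and the bases after it and holds matches to TGANTCA, the Fos and Jun motif, and to the E-box CAGNTG. No match to any of the 20 motifs was found in the Tet3 stretch without footprint, which ends in a run of CA repeats. A match is a match of letters and is not evidence of binding.

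Regions without a footprint were weak. Signal here is the deposited strength of a peak, whose scaling is not stated, and it comes from the same cuts as the footprints, so the values that follow describe the choice of regions and test nothing. In replicate 1 the signal of the 1017 regions ran from 0.191 to 3.26 with a median of 0.927, against a median of 2.86 in regions with footprints of both libraries. In replicate 2 it ran from 0.113 to 1.82 with a median of 0.555, against 1.07. The ranges of the sets overlapped in both libraries. Regions with footprints of replicate 1 only were weak too, with medians of 1.07 in replicate 1 and 0.548 in replicate 2. Those with footprints of replicate 2 only had 0.912 and 0.638. The signal of replicate 1 exceeded that of replicate 2 by a median log2 ratio of 0.72 in regions without footprint and 1.25 in footprinted ones. All autosomal shared regions were cut into 10 deciles of the mean signal rank of both libraries, and in the weakest 445 of 3617 (12.3%) held no footprint. The share was 8.46% in decile 2, 4.01% in decile 3, 2.18% in decile 4 and 0.913% in decile 5. Deciles 6, 7 and 8 held 6, 2 and 1 such regions, and deciles 9 and 10 held none. Most weak regions nevertheless carried footprints, since 62.8% of the weakest decile held footprints of both libraries.

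**Figure D1:**
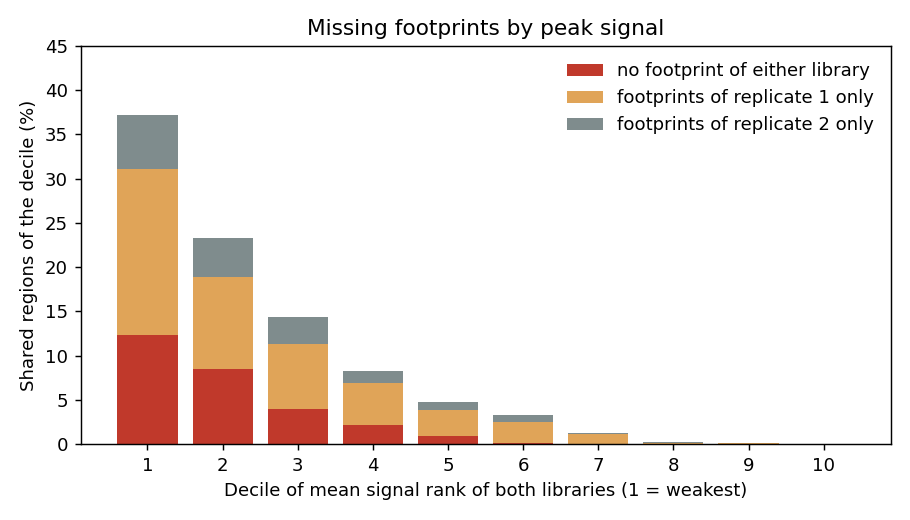
Share of autosomal shared regions that lack footprints, by decile of signal (x axis, 1 the weakest; y axis, percent of the regions of that decile). The stacked bars separate regions without footprint of either library from those with footprints of replicate 1 or 2 only. Regions without any footprint fall from 12.3% of decile 1 to 0 in deciles 9 and 10.

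The regions without footprint were wider than the footprinted ones, with a median of 299 bp (quartiles 219 and 400) against 220 bp (199 and 300). In deciles 1 to 3 of signal, the share without footprint was 8.48% of regions up to 150 bp wide, 4.20% from there to 250 bp, 11.9% to 350 bp, 17.3% to 500 bp and 15.1% above. This order of widths depended on the peak set. With the longer peak lists, the log2 ratio of the median width of footprinted regions to that of regions without footprint was -0.0060, against -0.44 here. When the peaks and footprints of 1 library were used alone, the peaks without footprint were the narrower ones, and the log2 ratio was 0.30 in replicate 1 and 0.93 in replicate 2. The share without footprint was then 12.1% in replicate 1 and 16.5% in replicate 2. Among the shared regions themselves, 1632 lacked a footprint of replicate 1 and 2751 lacked one of replicate 2. The 1017 that lacked both were 62.3% of the first set and 37.0% of the second.

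The cut rate was above background almost throughout these regions. The deposited cut-rate files list stretches of bases with their false discovery rate (FDR), up to 0.05. A median of 99.1% of the bases of a region without footprint were at an FDR of 0.001 or less in replicate 1, and 87.3% in replicate 2. In footprinted regions the median was 100% in both libraries. Cut rates and peaks come from the same cuts, so these values describe the choice of regions. The lowest FDR within a region had a median of 4.97e-07 in replicate 1 (2.49e-19 in footprinted regions) and 8.58e-06 in replicate 2 (4.05e-10). The listed stretch around a region was taken from the start of the first listed run overlapping it to the end of the last. It can therefore include breaks. For regions without footprint its median length was 1344 bp in replicate 1 and 1337 bp in replicate 2. Around footprinted regions it was 389 and 438 bp. That stretch held a footprint somewhere outside the region in 967 of the 1017 (95.1%) in replicate 1 and in 949 (93.3%) in replicate 2. The nearest footprint lay at a median of 232 bp in replicate 1 and 256 bp in replicate 2. The regions without footprint thus sat inside long accessible stretches in which footprints had been called nearby.

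Most of the regions lay beside a stronger, footprinted region. Of the 1017, 850 (83.6%) had a region with footprints of both libraries within 500 bp, at a median of 240 bp over all 1017. Only 10.6% of the footprinted regions had another footprinted region as near, and their median distance was 13360 bp. Regions with footprints of 1 library lay between, with 35.6% for replicate 1 only and 53.98% for replicate 2 only. Within promoters the share was 91.1% without footprint and 18.6% with footprints of both libraries. There it was 65.2% with footprints of replicate 1 only and 77.99% with those of replicate 2 only. Footprinted regions were then reweighted to match the regions without footprint in signal (5 strata) and width (3 strata), which is called standardised below. The share of standardised footprinted regions with a footprinted neighbour within 500 bp was 13.3%. Distance to a footprinted region is not independent of a rule that uses footprints, so this too is a description. The difference in this share, 72.9 points, was 46.0 among all peaks of replicate 1, 30.2 among all peaks of replicate 2 and 33.2 with the longer peak lists. The neighbour had the higher signal in 843 of the 850 pairs in each library. Most footprinted regions at large were also stronger than most regions without footprint. Their first quartile of signal was 1.43 in replicate 1 and 0.735 in replicate 2. The third quartile of the 1017 regions was 1.17 and 0.675. The median signal of these 850 regions was 0.949 in replicate 1 and 0.566 in replicate 2, that of their neighbours 4.84 and 1.97, and the median fold between them 4.77 and 3.22.

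**Figure D2:**
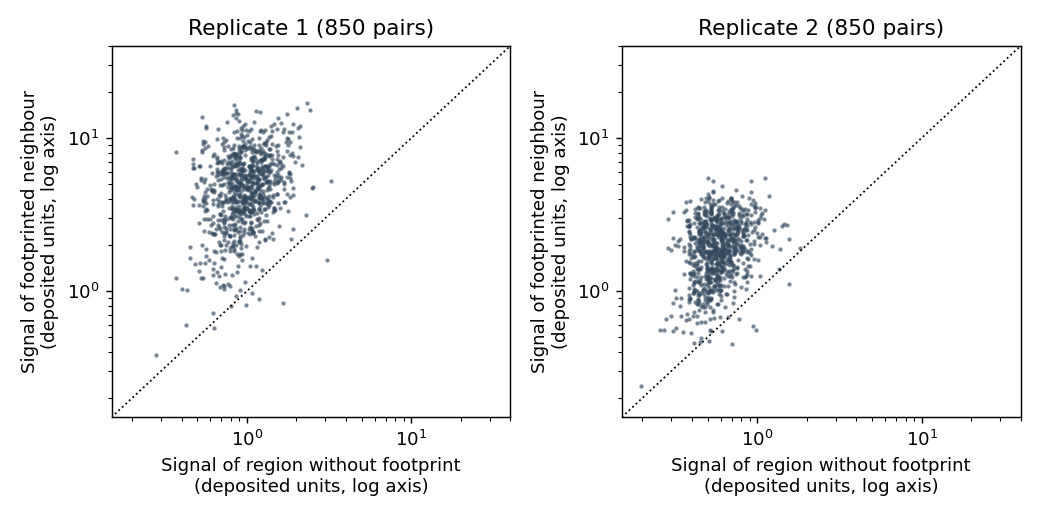
Signal of each region without footprint (x axis) and of the footprinted region within 500 bp of it (y axis), in deposited units on log axes, 1 panel per library and 1 point per pair. In each library 843 of 850 points lie above the dotted line of equal signal.

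Gene starts were over-represented in the set. A promoter window reached 500 bp either side of an annotated start of a coding gene or of a long noncoding RNA. It was overlapped by 779 of the 1017 regions without footprint (76.6%) and by 39.4% of the footprinted regions. The share was 40.5% of regions with footprints of replicate 1 only and 51.7% of those of replicate 2 only. Standardised to signal and width, the footprinted share was 31.01%. Exons outside promoters held 46 of the 1017 (4.52%, against 6.08% of footprinted regions), introns 90 (8.85% against 25.7%) and intergenic sequence 102 (10.03% against 28.8%). Annotation was not used to choose the regions, but promoter regions also differ from other regions in signal. Among shared regions without a footprint of replicate 1 the promoter share was 67.2%, against 39.5% of those with one. For replicate 2 the shares were 53.8% and 39.7%. The difference of 37.2 percentage points was smaller with other peak sets: 18.03 points among all peaks of replicate 1, 3.09 among all peaks of replicate 2 and 8.72 with the longer peak lists.

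At promoters the regions without footprint lay downstream of the start. Their centres were at a median of 267 bp after the nearest start (quartiles 16.5 and 431.5), whereas footprinted promoter regions were centred at -53 bp (quartiles -117 and 16). The centre was after the start in 592 of 779 (76.0%) against 28.6%. Footprinted promoter regions of like signal and width were after the start in 50.03%. Among promoter regions with footprints of replicate 1 only the share was 54.7%, and with those of replicate 2 only it was 64.5%. The start itself lay outside the region in 581 of the 779 (74.6%), against 19.8% of footprinted promoter regions and 36.4% of the standardised ones. The nearest start belonged to a protein-coding gene in 92.4% and 91.4% of the sets. Among promoter regions, the share that overlapped a coding exon was 34.3% without and 28.8% with footprints, the share in a UTR but no coding exon was 18.9% and 51.9%, and the share in introns alone was 32.5% and 6.78%. Of the 710 promoter regions without footprint that had a footprinted neighbour within 500 bp, the neighbour covered any annotated start in 617 (86.9%). Footprinted promoter regions commonly do, since the start lay outside only 19.8% of them. The neighbour was nearer to its own nearest start than the region without footprint was to its own in 502 of the 710 (70.7%). The most frequent arrangement was a footprinted region over an annotated start with a region without footprint beside it.

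**Figure D3:**
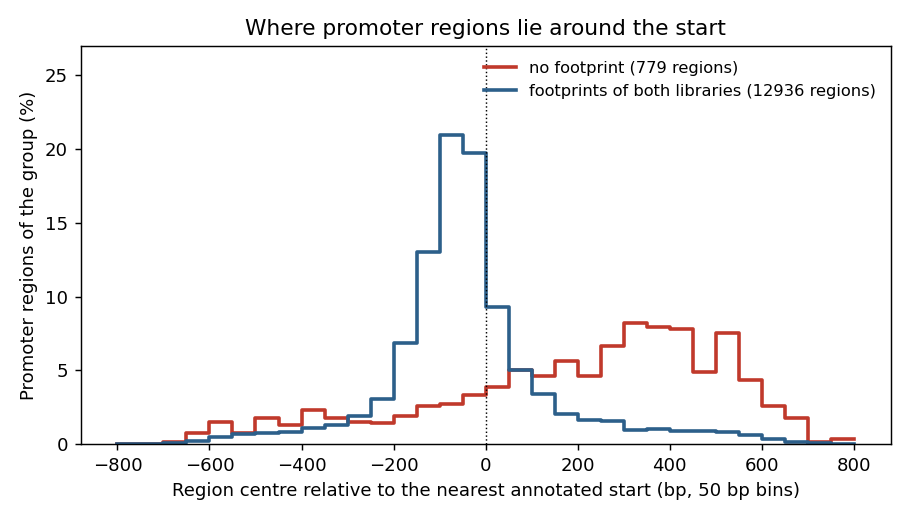
Position of promoter region centres relative to the nearest annotated start (x axis, bp in 50 bp bins; positive values are downstream) as percent of the promoter regions of each set (y axis). Footprinted regions peak just upstream of the start, and regions without footprint spread over 100 to 600 bp downstream.

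The 10 regions without footprint that ranked highest in signal all lay in promoter windows. The first, at chr11:75178741-75178980, covers the start of Ovca2 and overlaps Dph1, a gene of diphthamide synthesis, with a signal of 3.26 in replicate 1 and 1.82 in replicate 2. Its footprinted neighbour, 20 bp away, had 5.24 and 1.91, nearly the same in replicate 2. The second, at chr7:16400741-16401300 over a start of Zc3h4, a zinc finger gene, had 3.08 and 1.55. It was the stronger of its pair, since the abutting footprinted region had 1.59 and 1.12. At Zfp143, which encodes a zinc finger activator of many promoters, the region at chr7:110061841-110062240 lies in an intron, centred 319 bp after the start, with 2.31 and 1.11. The footprinted region 60 bp away had 17.0 and 5.47.

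Pcbp1 encodes an RNA-binding protein, and the region at chr6:86525681-86526060 in its coding exon had 2.11 and 1.42, against 11.9 and 2.65 in the footprinted region 60 bp away. Upstream of Plk2, a kinase gene known to be regulated by neuronal activity, the region at chr13:110394261-110394620 had 1.88 and 1.46, and its neighbour had 8.03 and 2.74. Over the start of Kif17, a kinesin gene, the region at chr4:138262301-138262700 had 2.48 and 1.11 beside a neighbour at 4.74 and 2.21. The other 4 lay at Bloc1s3 and Trappc6a, Zkscan5, Prdm15 and Znfx1, with signals of 1.78 to 2.52 in replicate 1 and 1.10 to 1.57 in replicate 2. Except at Zc3h4, the neighbour was the stronger region in both libraries at each of the 10. The promoter region nearest the median rank, at chr11:20201781-20202060 in an intron of Rab1a, a gene of vesicle transport, had 1.02 and 0.540, and the footprinted region 420 bp away had 11.2 and 4.54.

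Outside promoter windows the strongest exon region, at Tet3 (chr6:83440541-83440860), had signals of 1.90 and 0.855, and its neighbour 20 bp away had 2.55 and 1.26. In the Tet3 region, 12.2% of 31-base words also occur elsewhere in the genome. The strongest intron region, at chr4:46451941-46452414 in Anp32b, a histone chaperone gene, had 1.19 and 0.990. It was stronger than the footprinted region 161 bp away, which had 0.890 and 0.555. The strongest intergenic region, at chr19:5803181-5803400 upstream of Malat1, had 1.88 and 1.11, against 11.03 and 3.40 in its neighbour 100 bp away. The next, at chr10:59952435-59952731 upstream of Ddit4, a stress-induced inhibitor of growth signalling, had 2.04 and 1.04 beside a neighbour at 11.7 and 3.50. The Malat1 and Ddit4 regions lay 509 and 601 bp from the start, just past the promoter window. With a window of 2000 bp, the promoter share difference was 41.8 points.

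Some of the regions were near the edge of the rule. A footprint lay within 10 bp outside the edge of 17 of the 1017 (1.67%) and within 50 bp of 79 (7.77%). Outside the set, 507 regions overlapped footprints by 10 or fewer bases in all. The median footprint width was 10 bp in replicate 1 and 9 bp in replicate 2. Such an overlap can thus be 1 whole footprint inside the region and not a clipped edge. The median signals of the 507, 0.934 and 0.585, were close to the 0.890 and 0.510 of the 17. Just inside the rule was the region at chr15:76879192-76879280 over the start of Zfp7, with 0.890 and 0.398 and a footprint of replicate 1 at 1 bp from its edge. Just outside was chr2:152227001-152227320 at Csnk2a1, a casein kinase gene, with 1.40 and 0.870. There a footprint of replicate 1 only touched the region. A footprint of replicate 2 only did so at chr6:51524438-51524680 (Snx10, 0.956 and 0.563) and at chr12:80519201-80519400 (Galnt16, 0.802 and 0.713).

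The regions were rich in CpG. The CpG ratio, the observed number of CpG over that expected from the base composition of the central 200 bp, had a median of 0.710 in regions without footprint and 0.446 in footprinted regions, or 0.380 when standardised. The median GC content was 63% against 55%, and 53% when standardised. Within promoters the order turned, at 0.749 (quartiles 0.590 and 0.885) without footprint and 0.822 (0.641 and 0.964) with footprints, while standardised footprinted promoter regions had 0.674. In exons the medians were 0.781 and 0.372, in introns 0.446 and 0.250, and in intergenic sequence 0.478 and 0.290. Standardisation left the footprinted medians of these 3 classes at 0.402, 0.256 and 0.268, below those of the regions without footprint. It did not match distance to a start. In exons the nearest start lay at a median of 756.5 bp without and 4302 bp with footprints. In introns it lay at 1226 and 11317 bp, and in intergenic sequence at 4394 and 21039 bp. The CpG ratio over all shared regions without a footprint of replicate 1 was 0.667, against 0.446 with one, and for replicate 2 it was 0.573 against 0.449. The difference of 0.264 between the sets was 0.0134 among all peaks of replicate 2 and 0.0329 with the longer peak lists.

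**Figure D4:**
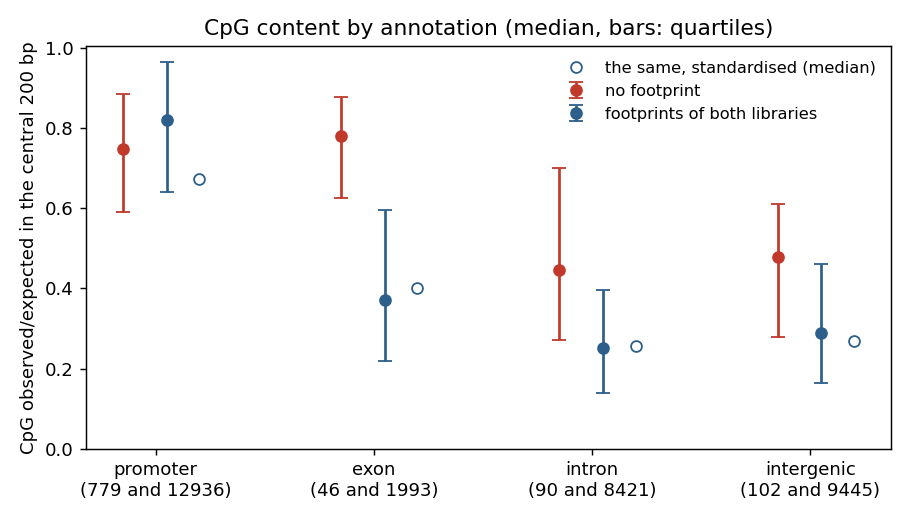
CpG observed to expected ratio in the central 200 bp (y axis) by annotation class (x axis, with the number of regions without and with footprints). Filled points are medians and bars reach the quartiles, and open circles are medians of footprinted regions standardised to signal and width. Outside promoters the regions without footprint lie above the footprinted ones.

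Repeats did not mark the set. Soft-masked repeats made up a mean of 6.67% of the bases in regions without footprint and 7.33% in footprinted ones. This difference changed sign among all peaks of replicate 2 and with the longer lists. In 36 regions (3.54%) at least 10% of 31-base words occurred elsewhere in the genome, against 4.22% of footprinted regions. The share without footprint ran from 1.94% on chromosome 8 to 4.18% on chromosome 19.

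No match to the CTCF motif was found in the set. CTCF is an insulator protein that binds a long motif, stays on it for long and leaves one of the clearest footprints known. Motifs of factors that leave footprints are not independent of a rule that uses footprints. The motif shares here and below are thus a description of the set. None of the 238 regions without footprint outside promoters had a match in the central 200 bp, which allows a share of up to 1.26% by counting error. A match was found in 3677 of 19859 footprinted regions (18.5%) and in 17.4% of all shared regions outside promoters. CTCF sites are also strong peaks, and in footprinted regions of like signal and width the share was 4.69%. At promoters 0 of 779 regions without footprint (up to 0.385%) and 2.41% of footprinted ones had a match, or 1.14% when standardised. Among shared regions outside promoters without a footprint of replicate 1, 0.374% had a CTCF match, against 17.9% with one, and for replicate 2 the shares were 4.41% and 18.3%.

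Outside promoters, distance to a start, given above by class, was not matched for CTCF or for any other motif. Other motifs outside promoters differed less than CTCF before standardising. When standardised, GGGCGG and CAGNTG differed more, by 13.1 and -15.3 points against -4.69 for CTCF. The Sp and Klf motif GGGCGG, a GC-rich letter string, was in 52 of the 238 regions without footprint (21.8%) and in 10.2% of footprinted regions, or 8.75% when standardised. The E-box CAGNTG, the site of neurogenic bHLH factors, was in 44.5% and 55.4%, or 59.8% when standardised. With the longer peak lists both differences changed sign, to -1.02 points for GGGCGG and 0.767 points for CAGNTG. Among all peaks of 1 library, the GGGCGG difference fell from 11.7 points to 3.18 in replicate 1 and 0.178 in replicate 2, and the CAGNTG difference was -2.59 and -0.131 in place of -10.9. The Fos and Jun motif TGANTCA was in 11 of the 238 (4.62%) against 6.97%, or 9.35% when standardised. No match to the NFI motif was found, but the limit of 1.26% for a count of 0 exceeds the 0.937% of footprinted regions. Among shared regions outside promoters, 0.187% without a footprint of replicate 1 had an NFI match, against 0.976% with one. For replicate 2 the order was the reverse, at 1.42% and 0.928%.

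At promoters the motifs of several sequence-specific transcription factors were scarcer without a footprint. NRF1, a regulator of genes for mitochondria and housekeeping, has the motif GCGCNTGCG, which was in 13 of 779 regions without footprint (1.67%) and in 12.7% of footprinted promoter regions. The NF-Y motif CCAATCA was in 1.28% and 8.89%. The ETS motif CCGGAAG was in 5.13% and 14.2%, and the CREB and ATF motif TGACGTCA, through which cyclic AMP and neuronal activity act, in 0.128% and 3.45%. The YY1 motif AANATGGCG was in 1.03% and 4.29%, the long ZFP143 motif in 0.128% and 1.46%, and GGGCGG in 39.3% and 56.6%. CAGNTG was in 34.7% and 31.6%, but in 41.1% of footprinted promoter regions standardised to signal and width, which reversed the order. Of all autosomal shared promoter regions, 11.4% held the NRF1 motif, 8.10% NF-Y, 13.1% ETS, 3.08% TGACGTCA, 3.90% YY1, 1.32% ZFP143 and 54.7% GGGCGG.

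Most of these differences shrank against footprinted promoter regions of like signal and width. The standardised shares were 3.20% for NRF1, 4.01% for NF-Y, 5.33% for ETS, 1.15% for TGACGTCA, 1.30% for YY1, 0.156% for ZFP143 and 40.2% for GGGCGG. At least 1 of the 6 motifs other than GGGCGG was in 66 of 779 regions without footprint (8.47%), in 37.8% of footprinted ones and in 14.1% of the standardised ones. In promoter regions with footprints of replicate 1 only the share was 14.5%, and with those of replicate 2 only it was 9.12%. Regions centred 100 to 600 bp after a start were also compared with each other, to narrow the range of positions. Position still differed within this band, with median centres at 361 bp without and 247 bp with footprints. There, 33 of 485 regions without footprint (6.80%) and 324 of 1797 footprinted ones (18.03%) had 1 of the 6 motifs, and the standardised share was 8.09%. With footprints of replicate 1 only the share was 9.09%, and with those of replicate 2 only it was 5.88%. In that band GGGCGG was in 42.5% and 39.96%, and the CTCF motif in 0 of 485 and 4.12%, or 1.11% when standardised.

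**Figure D5:**
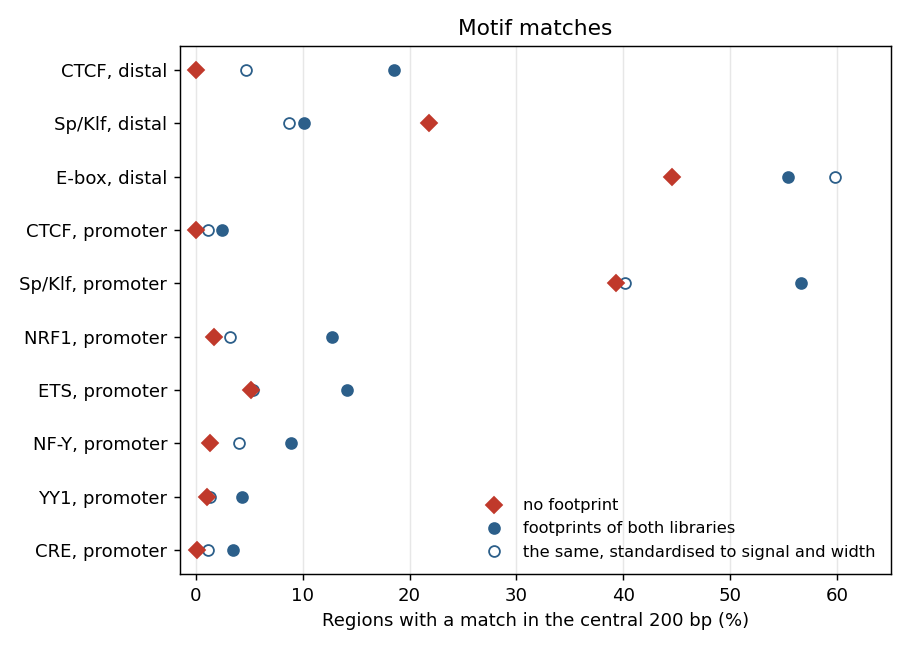
Percent of regions with a motif match in the central 200 bp (x axis) for regions without footprint (diamonds), footprinted regions (filled circles) and footprinted regions standardised to signal and width (open circles), outside promoters (distal) and at promoters. CTCF is at 0 in both rows of diamonds, and at promoters most open circles lie close to the diamonds.

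Genes with such a region near a start were then counted. Of 11474 autosomal protein-coding genes with a shared region within 500 bp of a start, 784 (6.83%) had a region without footprint there. That share was 25.6% with replicate 1 alone, 22.8% with replicate 2 alone and 0.466% with the stronger 50% of peaks. The list of activity-regulated genes held 5 among 29 open genes (17.2%): Junb, Jun, Egr1, Klf10 and Gadd45b. Genes of synaptic adhesion and scaffolding held 3 of 24 (12.5%), namely Dlgap4, Cadm1 and Cadm3, and pan-neuronal genes 1 of 16, Uchl1. The lists of excitatory neurons (14 open genes), interneurons (5), astrocytes (7), oligodendrocytes (4), microglia (3), housekeeping (23), ribosomal proteins (36), ion channels (22) and keratinocytes (2) held none. The genes with such a region were named after their values were seen, the lists are short, and the shares were not tested.

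Jun, Junb and Egr1 encode transcription factors of the immediate early response. At Jun the region without footprint, at chr4:95051401-95051880 in the UTR and centred 581 bp after the start, had 1.55 in replicate 1 and 0.743 in replicate 2. The footprinted region at the start, 240 bp away, had 8.96 and 4.58, or 5.78 and 6.16 times as much. At Junb the region at chr8:84978041-84978233 in the coding exon, also centred 581 bp after the start, had 1.24 and 0.638. The footprinted Junb region printed above had 5.43 and 2.55. Another footprinted region of the gene, 1280 bp from the region without footprint, had 6.01 and 2.43. The region in the coding exon of Egr1 (chromosome 18), centred 443 bp after a start, had 1.80 and 0.728. A footprinted region 200 bp away had 6.01 and 3.59, and one 1360 bp away had 13.4 and 3.32. In each of these genes the region without footprint was the weaker one in both libraries.

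Gadd45b encodes a stress and DNA demethylation protein, and its region at chr10:80930341-80930574, centred 297 bp after the start, had 1.07 and 0.570 against 6.18 and 2.92. At Klf10, a TGF-beta-induced repressor gene, the region at chr15:38299601-38300260 had 1.05 and 0.870 against 4.85 and 2.45. Uchl1, which encodes a deubiquitinase abundant in neurons, had 1.82 and 0.825 at chr5:66676521-66676920 against 5.49 and 2.45. Among the synaptic genes, the adhesion molecule gene Cadm1 had 1.49 and 1.04 at chr9:47529706-47529940, centred upstream of the start and outside genes, against 5.43 and 2.00 at the start. Cadm3, of the same family, had 1.03 and 0.720 in an intron against 3.39 and 1.15, and the postsynaptic scaffold gene Dlgap4 had 1.32 and 0.615 in an intron against 6.45 and 2.15. All 9 genes had at least 1 footprinted region at a start.

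Genes whose shared regions at a start all lacked footprints were rare. In 16 of the 11474 genes (0.139%) every shared region within 500 bp of a start lacked footprints. They were 9930021J03Rik, B3gat2, D930007J09Rik, Disc1, Gm10642, Gm3448, Gm49527, Klhl1, Purg, Rbbp6, Sh3tc1, Tcte3, Tmem158, Tmem178b, Usp49 and Zfp7. Zfp7 and Gm49527 share 1 region, as do Gm3448 and Tcte3. A footprint of replicate 1 lay 1 bp outside the Zfp7 region. Footprints outside the shared regions were not counted, here or in the shares of promoters without footprint given below. None of the gene lists holds any of the 16. At B3gat2, which encodes an enzyme of a neural carbohydrate epitope, the region was 860 bp wide and had 0.949 and 0.473. At Purg, a purine-rich element binding protein gene, it was 828 bp wide with 1.15 and 0.630. Disc1, a scaffold protein gene studied in psychiatric disease, had a region of 115 bp with 1.06 and 0.630 in an intron 433 bp after the start. Klhl1, a neuronal actin-binding protein gene, had 0.382 and 0.330. By library alone, the share of such genes was 1.20% with replicate 1 and 2.63% with replicate 2. With peaks required to overlap by 50% of the shorter it was 0.202%, and among regions with few repeated 31-base words 0.215%. It was 0.443% with the longer peak lists, 0.0410% with a promoter window of 2000 bp and 0 with the stronger 50% of peaks.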

How the data were processed

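DNase-seq peaks, footprints and cut rates of 2 libraries were used, 1 group with replicates 1 and 2. The authors deposited peak lists whose signal value has no stated scaling, a cut-rate file whose p-value is an FDR listed up to 0.05, and footprints whose deposited FDR is constant at 0.01. Per the deposited description, each file was made from 1 library and the footprints from its alignments and cut rates. Which aligner and peak caller were used is not stated in the labels or file headers. The build is mm10 per the labels, and no autosomal peak ended past a chromosome of the RefSeq GRCm38.p6 genome. Genes came from GENCODE M21.

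Regions were joined by overlaps between the libraries' strict peaks, not within a library. Motifs and CpG were read in the central 200 bp. Standardised values weight footprinted regions to the signal rank (5 strata) and width (3 strata) of the regions without footprint. Overlap and motif code was tested on simulated data, and overlap counts were checked with bedtools 2.31.1. Python 3.11.15, numpy 2.4.6 and pandas 2.3.3 were used. An upper limit for a count of 0 is 3 counts of the total, takes regions as independent and covers counting error only. The members, lists, motifs and comparisons were chosen with earlier results of these data known. Named regions were the 10 strongest, the 3 strongest and the median one of each annotation class and those at the edge of the rule. Named genes were those of the 14 lists with a region without footprint, the genes whose regions all lack footprints and those at the strongest regions. Alternatives left out a library, or changed the peak list, overlap, margin, promoter window, sequence window, repeats or standardisation. A version that also joined overlapping peaks of 1 library was added after the data were seen.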

Additional observations from a re-analysis of the deposited data

How the results depend on the processing

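No paired analysis was possible because the 2 libraries form 1 group. The cause of the shifts below was not tested. With the peaks and footprints of 1 library alone, the share without footprint was 12.1% to 16.5%, the log2 signal ratio of footprinted regions to those without 0.92 to 1.22, and the log2 width ratio 0.30 to 0.93, the reverse of -0.44. The promoter share difference was then 3.09 to 18.03 points, the CpG ratio difference 0.0134 to 0.166, the repeat share difference -0.726 to 0.349, the CTCF motif difference -13.7 to -12.6 points and the share of promoters without footprint 1.20% to 2.63%. Such peaks include those found in only 1 library. With the longer peak lists, the promoter share difference was 8.72 points, the CpG ratio difference 0.0329, the repeat share difference 0.0549, the CTCF difference -12.6 points, the log2 width ratio -0.0060, the share without footprint 5.11% and the share of promoters without footprint 0.443%. The differences outside promoters were then -1.02 points for GGGCGG and 0.767 for CAGNTG. With the stronger 50% of peaks, where 0.251% of regions held no footprint, the log2 signal ratio was 0.94, the repeat share difference 1.54, the CTCF difference -25.7 and the ZFP143 promoter difference 0.440. Standardisation took the CTCF difference to -4.69 points. Joining at 50% overlap, the 50 bp margin, the wider promoter window, whole-region sequence, leaving out repeated sequence and joining peaks of 1 library shifted the signal, promoter, CpG and CTCF results by less than the SD between the 2 libraries taken alone. For the width and repeat results and the shares without footprint that SD is larger than the value itself and says nothing of stability. Over these alternatives the share without footprint was 2.59% to 2.83%, and the share of promoters without footprint 0.0410% to 0.215%.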

Other observations

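A small subset of the regions without footprint stood away from any footprinted region. In 60 of the 1017 (5.90%) no region with footprints of both libraries lay within 5000 bp, compared with 69.4% of footprinted regions, and in 23 of the 60 no footprint of either library lay within that distance. These 60 had median signals of 0.533 in replicate 1 and 0.401 in replicate 2, a median width of 135.5 bp and a median CpG ratio of 0.324. By annotation, 25 lay in introns, 25 in intergenic sequence, 6 in promoters and 4 in exons. In 5 of them at least 10% of 31-base words occurred elsewhere in the genome.

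The X chromosome was not part of the set. There, 42 of 957 shared regions (4.39%) held no footprint, against 1.94% to 4.18% on single autosomes.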
